A study of Mus musculus with 6 samples.

Results

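The 45 mitosis and spindle genes described here encode the machinery with which a cell enters mitosis, builds the spindle, holds and separates its chromosomes and divides. They were taken by name, under the present or an older gene symbol, from the scanner files of mouse 2-colour Agilent arrays, leaving out control spots and keeping the brightest probe of each gene. They make up 45 of the 19383 named genes on the array, and 44 of them could be tested. The exception was Espl1, which encodes separase, the protease that opens the cohesin ring at anaphase, and whose probe was not well above background in any of 12 channels.

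The RNA came from HACA cells, whose tissue of origin the labels do not give. The tested cells were shLoxl2 cells, named for a short hairpin RNA against Loxl2, a lysyl oxidase-like enzyme, and shSnail cells, named for a hairpin against Snail, the repressor encoded by Snai1. Each array carried, in its other colour, RNA of a control line named shGFP, for a hairpin against green fluorescent protein. All groups therefore carry a hairpin, and the labels give no time after its introduction and do not say whether a line was 1 clone or a pool. There were 2 numbered shLoxl2 samples, each on 2 arrays with the dyes exchanged, and 2 numbered shSnail samples, each on 1 array with shSnail RNA in Cy5. The labels do not say that the numbered samples came from separate cultures, so the p-values measure the spread between these samples, which may be technical. In the test of shSnail against shGFP, the spread also drew on the difference between dyes as measured on the shLoxl2 arrays.

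Mitosis is set off by cyclin-dependent kinase 1 with cyclins A and B, whose activity is released by Cdc25 phosphatases and ended when the anaphase-promoting complex marks the cyclins for destruction. In between, kinetochores attach chromosomes to microtubules, the spindle checkpoint delays anaphase until attachment is complete, and motor proteins and the central spindle drive separation and cytokinesis. Many of the genes are transcribed mainly in G2 and M phase, through promoter elements that include CCAAT boxes, bound by NF-Y, and the cell cycle genes homology region (CHR), bound by MuvB complexes.

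Promoter sequence of the listed genes, whether or not they were lower, was compared with that of all RefSeq promoters. RefSeq promoters of assembly GRCm38.p6 were at hand for 37 of the 45 genes, and the 250 bases before the annotated start were searched on both strands. A CHR hexamer, TTTGAA or TTTAAA, was present in 18 of the 37 (48.6%), against 25.5% of 27025 RefSeq promoters. CCAAT was present in 29 (78.4%), against 34.5% of all promoters, and the CDE-like letters GGCGG in 30 (81.1%), against 45.2%. A CHR hexamer together with CCAAT was found in 16 (43.2%), against 9.0% of all promoters. The promoters of the whole genome were not matched to these genes for base composition, and a match of letters is not evidence of a bound site. Genes that were lower were not compared with those that were not, so the part of these motifs in the changes was not tested. Shown here are the 4 promoters with a CHR hexamer among the 11 genes of smallest p in the comparisons with shGFP. Capitals mark CHR hexamers and CCAAT on either strand, so that TTCAAA and ATTGG are their reverse complements.

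Ccnb2 promoter: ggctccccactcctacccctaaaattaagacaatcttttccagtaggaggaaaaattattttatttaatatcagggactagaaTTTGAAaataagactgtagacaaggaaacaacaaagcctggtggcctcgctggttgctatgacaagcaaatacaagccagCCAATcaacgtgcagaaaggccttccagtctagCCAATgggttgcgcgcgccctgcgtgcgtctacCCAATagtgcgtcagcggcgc
Ect2 promoter: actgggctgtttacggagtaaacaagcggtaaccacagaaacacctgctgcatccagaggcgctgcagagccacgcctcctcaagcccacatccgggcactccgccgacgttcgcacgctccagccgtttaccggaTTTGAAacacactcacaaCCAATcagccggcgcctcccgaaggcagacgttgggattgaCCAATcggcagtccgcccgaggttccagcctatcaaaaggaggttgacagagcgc
Ube2c promoter: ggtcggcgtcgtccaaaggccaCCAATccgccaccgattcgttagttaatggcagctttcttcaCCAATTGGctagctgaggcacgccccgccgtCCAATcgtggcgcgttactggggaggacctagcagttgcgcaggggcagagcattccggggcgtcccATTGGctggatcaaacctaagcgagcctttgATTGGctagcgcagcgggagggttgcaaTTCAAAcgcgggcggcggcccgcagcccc
Kif22 promoter: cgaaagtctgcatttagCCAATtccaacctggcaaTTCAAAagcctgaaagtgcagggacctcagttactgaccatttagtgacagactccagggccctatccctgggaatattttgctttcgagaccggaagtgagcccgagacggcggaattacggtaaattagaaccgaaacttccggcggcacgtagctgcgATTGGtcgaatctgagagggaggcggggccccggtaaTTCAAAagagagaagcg

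The Ccnb2 promoter is chr9:70421555-70421804 on the minus strand, that of Ect2 is chr3:27153879-27154128 on the minus strand, that of Ube2c is chr2:164769679-164769928 on the plus strand, and that of Kif22 is chr7:127042421-127042670 on the minus strand. The CHR hexamer nearest the start began 167 bases before it in Ccnb2, 114 in Ect2, 29 in Ube2c and 17 in Kif22. In Ube2c a CCAAT and its complement overlap in the run CCAATTGG.

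Signal was well above background for 85.4% to 92.4% of spots in the red channel and 55.9% to 74.9% in the green channel, by array. Of the 44 tested mitosis genes, 32 were well above background in all 12 channels, and 0 had a saturated spot. The probe of Loxl2 was well above background in 7 of 12 channels and stood at 0.11 on the log2 scale in shLoxl2 against shGFP (limma adjusted p = 0.59). That of Snai1 was so in 2 of 12 and stood at -0.09 in shSnail against shGFP (limma adjusted p = 0.82), so these probes gave no check of the labels. Of the cell type markers, 7 of 9 keratinocyte and 5 of 8 mesenchymal genes were well above background in all 12 channels, against 2 of 6 leukocyte and 0 of 4 endothelial genes. The arrays lay on 6 slides read on 2 scan days, and neither day held both silenced groups.

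In shLoxl2 cells, 35 of the 44 mitosis genes were lower than in shGFP cells and 0 were higher by limma with Benjamini-Hochberg adjustment over 19718 probes (adjusted p below 0.05). Over all tested probes, 5.83% were lower and 8.01% higher in this comparison. The median log2 fold change of the 44 genes was -1.19, with a range of -1.99 to 0.11, against a median of -0.01 over all probes. Of the 35 genes, 28 were lower by at least 1 on the log2 scale. At an unadjusted p below 0.05, 40 genes were lower and 0 higher. The array ratios were below 0 on all 4 shLoxl2 arrays for 39 genes. For the log2, unadjusted p and array counts, the share of all probes was not counted.

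In shSnail cells, 39 of the 44 genes were lower than in shGFP cells and 0 were higher by limma at the same threshold. Here the dye effect of each probe, estimated from the shLoxl2 dye swaps, was subtracted in full, and other treatments are given below. Over all tested probes, 12.5% were lower and 8.77% higher. The median of the 44 was -1.26, with a range of -3.03 to 0.13, against -0.04 over all probes. Again 28 of the called genes were lower by at least 1 on the log2 scale, and 9 of them by at least 2. At an unadjusted p below 0.05, 40 were lower and 0 higher. Here too the share of all probes was not counted for the log2 and unadjusted p counts. Because both silenced lines were set against the same shGFP RNA, the 2 comparisons are not independent of each other. The shGFP RNA counts as 1 control sample, and its own spread is left out of the tests. In RNA from whole cultures, fewer cells in mitosis and less of a transcript per cell cannot be told apart.

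Markers of cell types moved beside the mitosis genes. Of 9 keratinocyte genes, 3 were lower (Itgb4, Sfn and Trp63) and 3 higher (Cdh1, Epcam and Krt15) in shLoxl2, and 5 were lower (Itga6, Itgb4, Krt14, Sfn and Trp63) and 1 higher (Krt15) in shSnail. Trp63, the p63 regulator of basal keratinocytes, was at -1.15 in shLoxl2 and -1.71 in shSnail. Of 8 mesenchymal genes, Sparc was lower in shLoxl2 at -0.69, and Sparc and Fn1 were lower in shSnail, at -1.20 and -2.27. Of 5 tested leukocyte genes, Cd68 was higher in shLoxl2 at 0.66 and 0 passed in shSnail. Neither of the 2 tested endothelial genes passed, and the endothelial gene Tek was above background in 0 of 12 channels. The part of these changes in the lower levels of the mitosis genes was not tested.

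**Figure D1:**
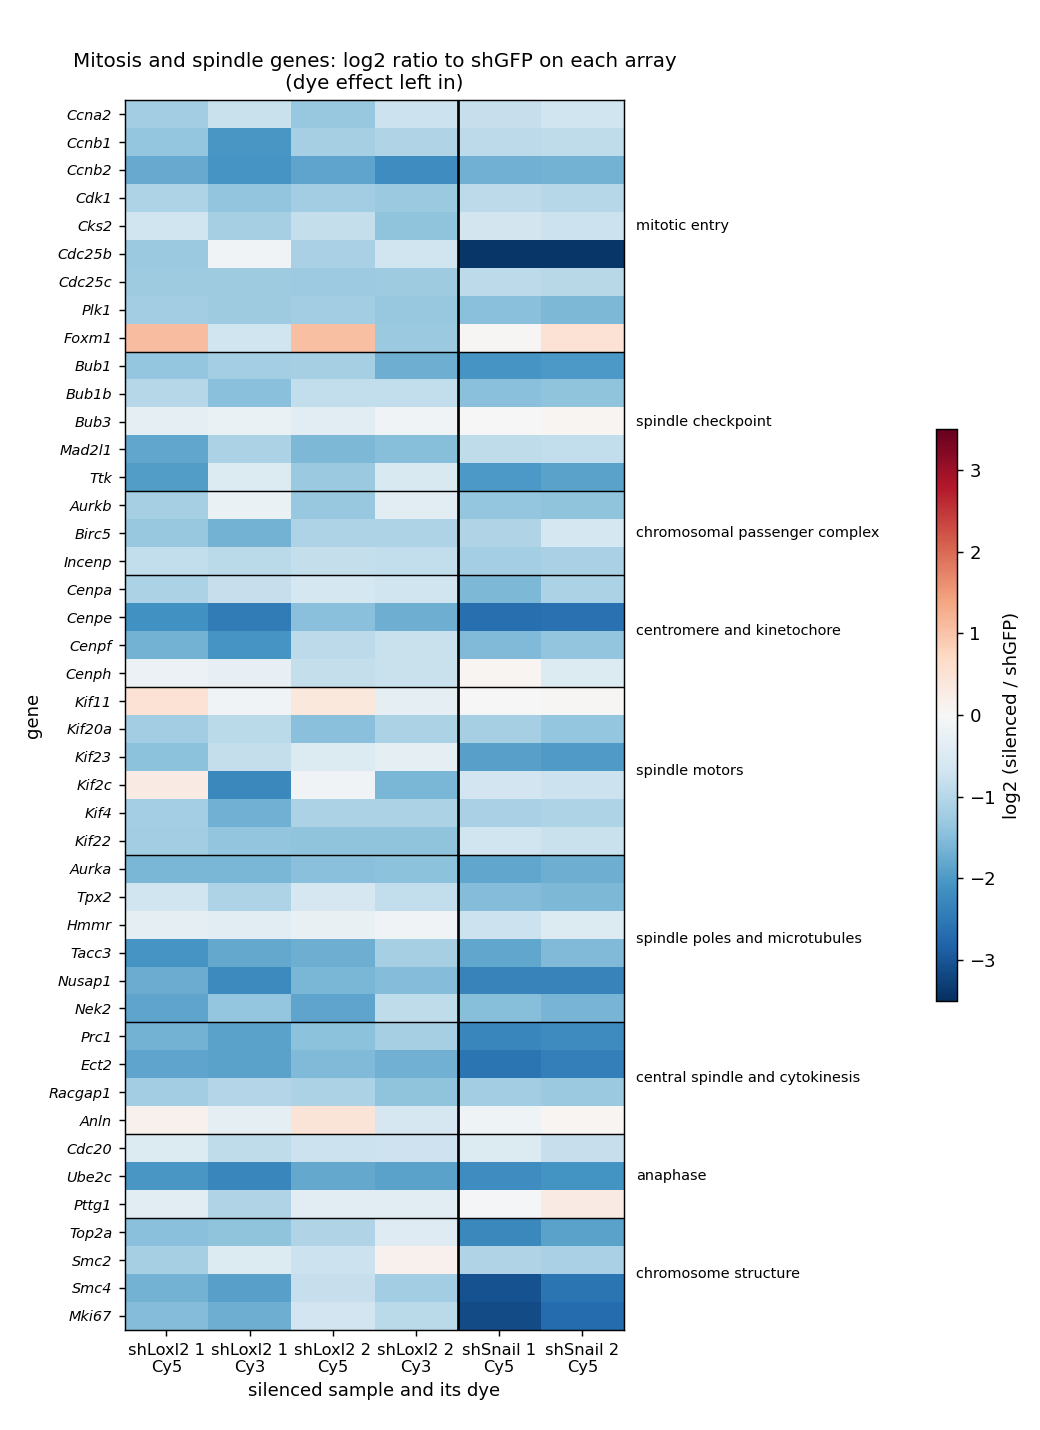
Heat map of the log2 ratio of silenced RNA over shGFP RNA for the 44 tested genes (rows, grouped by role) on each of the 6 arrays (columns, with the dye of the silenced RNA), dye effect left in. Blue is lower in silenced cells, and most rows are blue on all 6 arrays. Foxm1, Kif11 and Anln are red with shLoxl2 RNA in Cy5 and blue with it in Cy3. Kif2c is paler with the shLoxl2 RNA in Cy5 than in Cy3.

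The genes of mitotic entry fell with few exceptions: 8 of 9 were lower in shLoxl2 and 9 of 9 in shSnail, with medians of -1.24 and -1.04. With the dye effect left in or removed only in part, 8 of 9 were lower in shSnail, without Foxm1. Array ratios here and below have the dye effect left in, while fitted shSnail changes have it removed. The mitotic cyclin gene Ccnb2 (probe at chr9:70207028-70207087 in mm8) had log2 ratios to shGFP of -1.78 and -2.05 on the Cy5 and Cy3 arrays of shLoxl2 replicate 1 and of -1.85 and -2.17 on those of replicate 2, and of -1.68 and -1.66 on the 2 shSnail arrays. All 6 arrays were thus well below 0 and close to each other. The fitted change was 3.90-fold lower in shLoxl2 (log2 -1.96, SE 0.11, limma adjusted p = 0.00102) and 3.53-fold lower in shSnail (log2 -1.82, SE 0.13, limma adjusted p = 0.00128). For Cdc25b (chr2:130889814-130889870), a phosphatase that activates Cdk1, the array ratios were -1.30 and -0.13 for shLoxl2 replicate 1, -1.14 and -0.69 for replicate 2, and -3.39 and -3.41 for shSnail. With the dye effect left in, its shSnail arrays lay apart from all 4 shLoxl2 arrays. It was 7.99-fold lower in shSnail (log2 -3.00, SE 0.17, limma adjusted p = 0.00118) and 1.76-fold lower in shLoxl2 (log2 -0.82, SE 0.11, limma adjusted p = 0.00921).

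The other entry genes differed less between the lines. The log2 changes in shLoxl2 were -1.02 for the cyclin Ccna2, -1.40 for the cyclin Ccnb1, -1.24 for the kinase Cdk1, -1.02 for its subunit Cks2, -1.25 for the phosphatase Cdc25c and -1.25 for the polo-like kinase Plk1. In shSnail the same genes were at -0.50, -1.04, -1.06, -0.94, -0.95 and -1.55 in that order, and all of these passed the threshold. Foxm1, a transcription factor of G2/M genes, was the exception. Its ratios were 1.07 and 1.06 on the arrays with shLoxl2 RNA in Cy5, against -0.70 and -1.29 with the RNA in Cy3, so that the sign followed the dye. The shLoxl2 mean was 0.04 (limma adjusted p = 0.905). In shSnail Foxm1 was called lower at -0.76 (limma adjusted p = 0.0471), a call that held in 2 of 11 alternatives. With the dye effect removed in proportion to its fitted slope, it was at -0.20 (limma adjusted p = 0.457). Its shGFP channel was well above background on 1 of the 2 shSnail arrays.

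In the spindle checkpoint, which holds back anaphase until kinetochores are attached, 4 of 5 genes were lower in each silenced line. The kinase gene Bub1 (chr2:127492693-127492752) had ratios of -1.36 and -1.18 for shLoxl2 replicate 1, -1.18 and -1.70 for replicate 2, and -2.06 and -2.01 for shSnail. Its fitted change was -1.36 in shLoxl2 (SE 0.11, limma adjusted p = 0.00241) and -2.13 in shSnail (SE 0.17, limma adjusted p = 0.00131), and the shSnail arrays were the lowest of the 6. Mad2l1 (chr6:66469453-66469512), whose product inhibits Cdc20, ran the other way, with ratios of -1.82 and -1.10 for shLoxl2 replicate 1, -1.56 and -1.49 for replicate 2, and -0.90 and -0.87 for shSnail. It was 2.82-fold lower in shLoxl2 (log2 -1.49, SE 0.11, limma adjusted p = 0.00175) and 1.61-fold lower in shSnail (log2 -0.69, SE 0.16, limma adjusted p = 0.0253). The checkpoint kinases Bub1b and Ttk were at -1.05 and -1.06 in shLoxl2 and at -1.55 and -1.39 in shSnail. Bub3, a partner of Bub1, did not pass in either line, at -0.27 (95% interval -0.53 to -0.01) in shLoxl2 and 0.13 (95% interval -0.18 to 0.45) in shSnail.

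The chromosomal passenger complex corrects faulty attachments and acts in cytokinesis. Its kinase Aurkb and its subunits Birc5 and Incenp all fell, with log2 changes of -0.76, -1.29 and -0.88 in shLoxl2, and of -0.91, -0.91 and -1.20 in shSnail. At the centromere and kinetochore, 3 of 4 genes were lower in each line. The kinetochore motor Cenpe was the lowest of them, at -1.93 (SE 0.18) in shLoxl2 and -2.77 (SE 0.24) in shSnail. A dimmer Cenpe probe gave -0.39 in shLoxl2 (limma adjusted p = 0.139) and -0.79 in shSnail (limma adjusted p = 0.027). The centromeric histone Cenpa was at -0.80 and the kinetochore protein Cenpf at -1.35 in shLoxl2, against -1.28 and -1.53 in shSnail. Cenph, a subunit of the constitutive centromere network, did not pass, at -0.53 in shLoxl2 (limma adjusted p = 0.141) and -0.21 in shSnail (limma adjusted p = 0.604).

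Among the spindle motors, 4 of 6 genes were lower in shLoxl2 and 5 of 6 in shSnail. Kif22 (chr7:126818927-126818986), a kinesin that binds chromosome arms, had ratios of -1.21 and -1.37 for shLoxl2 replicate 1 and of -1.40 and -1.40 for replicate 2, the tightest set of its role, and of -0.71 and -0.79 for shSnail. Its fitted change was -1.34 in shLoxl2 (SE 0.11, limma adjusted p = 0.00238) and -0.79 in shSnail (SE 0.14, limma adjusted p = 0.0098). Kif20a, a kinesin of the central spindle, was at -1.18 in shLoxl2 and -1.09 in shSnail, and Kif4, a chromosome-bound kinesin, at -1.27 and -1.23. Kif23, the motor of the centralspindlin complex, fell by 1.75 in shSnail (limma adjusted p = 0.00554) and stood at -0.76 in shLoxl2 without passing (limma adjusted p = 0.051), with shLoxl2 means of -1.14 for replicate 1 and -0.39 for replicate 2. Kif2c, a microtubule depolymerase, was at -0.92 in shLoxl2 and -1.71 in shSnail, but its shLoxl2 ratios were 0.29 and -0.13 with the RNA in Cy5, against -2.25 and -1.60 in Cy3. Its probe was dim. On the shLoxl2 arrays, 2 of 4 silenced and 2 of 4 shGFP channels were well above background. On the shSnail arrays, 1 of 2 silenced channels was so. The Kif2c call held in 7 of 10 alternatives in shLoxl2 and in 11 of 11 in shSnail. Kif11, the motor that pushes spindle poles apart, passed in neither line, at 0.11 (95% interval -0.17 to 0.38) in shLoxl2 and -0.32 (95% interval -0.64 to 0.01) in shSnail.

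Spindle pole and microtubule genes were lower in 5 of 6 cases in shLoxl2 and in 6 of 6 in shSnail. The mitotic kinase Aurka (chr2:172047439-172047498) had ratios of -1.61 and -1.60 for shLoxl2 replicate 1, -1.46 and -1.44 for replicate 2, and -1.83 and -1.72 for shSnail. These 6 values lay close together, with fitted changes of -1.53 in shLoxl2 (SE 0.11, limma adjusted p = 0.00188) and -1.77 in shSnail (SE 0.14, limma adjusted p = 0.00128). Its activator Tpx2 (chr2:152585181-152585240) had ratios of -0.70 and -1.09 for shLoxl2 replicate 1, -0.58 and -0.87 for replicate 2, and -1.53 and -1.57 for shSnail, so the shSnail arrays were below all 4 shLoxl2 arrays. The fit gave -0.81 in shLoxl2 (SE 0.11, limma adjusted p = 0.00896) and -1.72 in shSnail (SE 0.14, limma adjusted p = 0.00132).

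Nusap1 (chr2:119340777-119340836), which bundles spindle microtubules, had ratios of -1.74 and -2.24 for shLoxl2 replicate 1, -1.60 and -1.52 for replicate 2, and -2.32 and -2.34 for shSnail. It was 3.43-fold lower in shLoxl2 (limma adjusted p = 0.00219) and 5.41-fold lower in shSnail (limma adjusted p = 0.00128). The centrosomal kinase Nek2 (chr1:193533305-193533364) had ratios of -1.85 and -1.35 for shLoxl2 replicate 1, -1.84 and -0.90 for replicate 2, and -1.50 and -1.62 for shSnail, each pair of shLoxl2 arrays being lower with the RNA in Cy5. Its fitted change was -1.48 in shLoxl2 (SE 0.12, limma adjusted p = 0.00235) and -1.20 in shSnail (SE 0.16, limma adjusted p = 0.00443). Tacc3, which stabilises spindle microtubules, was at -1.68 in shLoxl2 and -1.48 in shSnail. Hmmr, a microtubule-binding protein of spindle poles, was dim. It stood at -0.28 in shLoxl2 (limma adjusted p = 0.208), and its silenced channel was not well above background on either shSnail array. With the dye effect left in, Hmmr was 1.53-fold lower in shSnail than in shGFP (limma adjusted p = 0.0142). With the dye effect removed it passed at -0.58 (limma adjusted p = 0.0403), a call that held in 6 of 11 alternatives. The 1.53 sets the mean shGFP signal against the probe's own silenced signal, so it is an estimate and not a lower bound. It is also open to dye bias, since shSnail had no dye swap.

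Genes of the central spindle and cytokinesis were lower in 3 of 4 cases in each line. Ect2 (chr3:27288461-27288520), the exchange factor that activates RhoA at the division plane, had ratios of -1.85 and -1.88 for shLoxl2 replicate 1, -1.54 and -1.68 for replicate 2, and -2.55 and -2.39 for shSnail. It was 3.34-fold lower in shLoxl2 (log2 -1.74, SE 0.12, limma adjusted p = 0.00171) and 5.70-fold lower in shSnail (log2 -2.51, SE 0.15, limma adjusted p = 0.00128). The microtubule bundler Prc1 was at -1.53 in shLoxl2 and -2.21 in shSnail, and Racgap1, the other part of centralspindlin, at -1.19 and -1.28. Anln, a scaffold of the contractile ring, did not pass, at -0.08 in shLoxl2 (limma adjusted p = 0.702) and -0.41 in shSnail (limma adjusted p = 0.124), and its dimmer probe did not pass either.

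At anaphase, Ube2c (chr2:164463721-164463780), the ubiquitin-conjugating enzyme of the anaphase-promoting complex, was the lowest of all 44 genes in shLoxl2. Its ratios were -2.02 and -2.28 for shLoxl2 replicate 1, -1.79 and -1.86 for replicate 2, and -2.17 and -2.09 for shSnail. The 6 arrays overlapped between the lines, and the fit gave a 3.97-fold lower level in shLoxl2 (log2 -1.99, SE 0.13, limma adjusted p = 0.00141) and a 4.63-fold lower level in shSnail (log2 -2.21, SE 0.16, limma adjusted p = 0.00128). Cdc20, the activator of that complex, fell by 0.72 in shLoxl2 and by 0.75 in shSnail. Pttg1, the securin that inhibits separase, did not pass, at -0.56 in shLoxl2 (limma adjusted p = 0.0598) and -0.06 in shSnail (limma adjusted p = 0.867).

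Chromosome structure genes had the lowest median of any role in shSnail, at -2.44, against -1.15 in shLoxl2, with 4 of 4 lower in shSnail and 3 of 4 in shLoxl2. The proliferation antigen gene Mki67 (chr7:135528251-135528310), whose product coats mitotic chromosomes, had ratios of -1.53 and -1.71 for shLoxl2 replicate 1, -0.66 and -0.93 for replicate 2, and -3.14 and -2.69 for shSnail. The shSnail arrays were far below the others, and the shLoxl2 replicates stood apart from each other. It was 8.16-fold lower in shSnail (log2 -3.03, SE 0.29, limma adjusted p = 0.0017) and 2.31-fold lower in shLoxl2 (log2 -1.21, SE 0.22, limma adjusted p = 0.0209). The condensin gene Smc4 (chr3:69122460-69122519) had a like pattern, with ratios of -1.65 and -1.89 for shLoxl2 replicate 1, -0.81 and -1.23 for replicate 2, and -3.06 and -2.55 for shSnail. Its fitted change was -2.98 in shSnail (SE 0.28, limma adjusted p = 0.00169) and -1.39 in shLoxl2 (SE 0.22, limma adjusted p = 0.0127), and a dimmer probe was also lower in both lines, at -1.31 and -0.73. Top2a, the topoisomerase that untangles sister chromatids, was at -1.90 in shSnail and -1.09 in shLoxl2. Smc2, the partner of Smc4 in condensin, fell by 0.70 in shSnail (limma adjusted p = 0.0485) and stood at -0.56 in shLoxl2 (limma adjusted p = 0.0693). A dimmer Smc2 probe passed in neither line, at -0.64 in shSnail (limma adjusted p = 0.132) and -0.30 in shLoxl2 (limma adjusted p = 0.372).

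**Figure D2:**
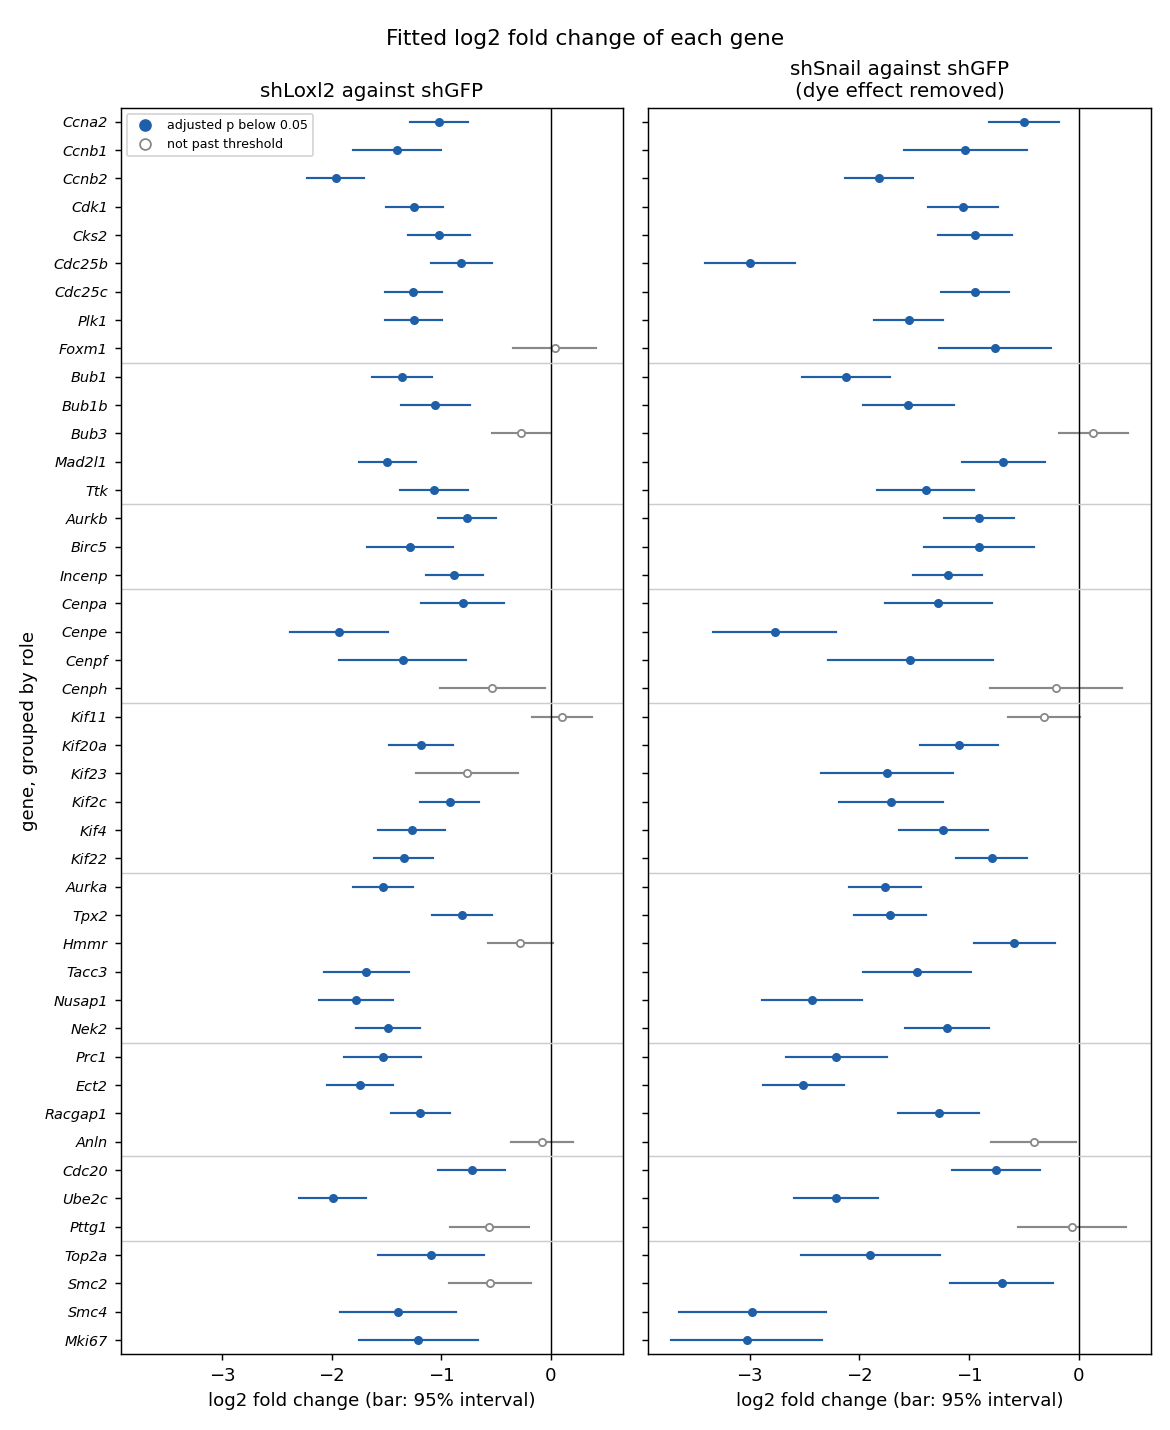
Fitted log2 fold change of each of the 44 genes (points) with its 95% interval (bars), for shLoxl2 against shGFP on the left and shSnail against shGFP with the dye effect removed on the right. Filled points passed the threshold: 35 genes on the left and 39 on the right, all of them lower than in shGFP.

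Of the 44 genes, 35 were called lower in both lines, 4 in shSnail alone (Foxm1, Kif23, Hmmr and Smc2), 0 in shLoxl2 alone and 5 in neither (Bub3, Cenph, Kif11, Anln and Pttg1). The 4 genes called in shSnail alone did not pass in the direct comparison of the lines, where they stood between -0.99 for Kif23 and -0.15 for Smc2 (limma adjusted p from 0.0648 to 0.653). In a joint fit with scaled removal of the dye effect Kif23 did pass, at -1.09 in shSnail against shLoxl2 (limma adjusted p = 0.038). Across processing alternatives, 22 of the 35 calls in shLoxl2 held in every alternative that gave the gene a value. The other 13 (Cks2, Cdc25b, Aurkb, Birc5, Incenp, Cenpa, Cenpf, Kif2c, Tpx2, Cdc20, Top2a, Smc4 and Mki67) lost the call in at least 1. In shSnail 29 calls held throughout, and the other 10 (Ccna2, Ccnb1, Foxm1, Mad2l1, Birc5, Cenpf, Kif22, Hmmr, Cdc20 and Smc2) lost it in at least 1.

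The shLoxl2 samples differed from each other at some of these genes. The dye-swapped mean of replicate 1 was below that of replicate 2 for 26 of the 44 genes and above it for 18, with medians of -1.23 for replicate 1 and -1.03 for replicate 2. For 8 genes, Ccnb1, Cenpe, Cenpf, Kif23, Top2a, Smc2, Smc4 and Mki67, replicate 1 was lower by more than 0.5 on the log2 scale, and for 1 gene, Cenph, replicate 2 was. Cenpf had means of -1.86 in replicate 1 and -0.85 in replicate 2. A fit of 1 shLoxl2 sample alone has to assume that it varies like the shSnail samples, so no count of lower genes is given for either replicate alone.

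Since shSnail RNA was always in Cy5, its ratios include any preference of a probe for a dye. The dye effect of each probe was estimated from the shLoxl2 dye swaps and removed. It was smaller for the mitosis genes, with a median size of 0.13 on the log2 scale, than over all probes (0.22), and exceeded 0.5 for Foxm1, Ttk and Kif2c. Left in, 38 of the 44 genes were lower and 0 higher, against 18.4% of all probes lower and 13% higher. Removed in proportion to its slope on the shSnail ratios (0.45), 38 were lower and 0 higher, against 14.2% of all probes lower and 8.93% higher. The same 38 genes were called under all 3 treatments, and the exception was Foxm1, which moved to 0.26 with the dye effect left in (limma adjusted p = 0.235), against -0.76 with it removed (limma adjusted p = 0.0471). Kif2c kept its call at -0.71 with the dye effect left in, against -1.71 with it removed.

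**Figure D3:**
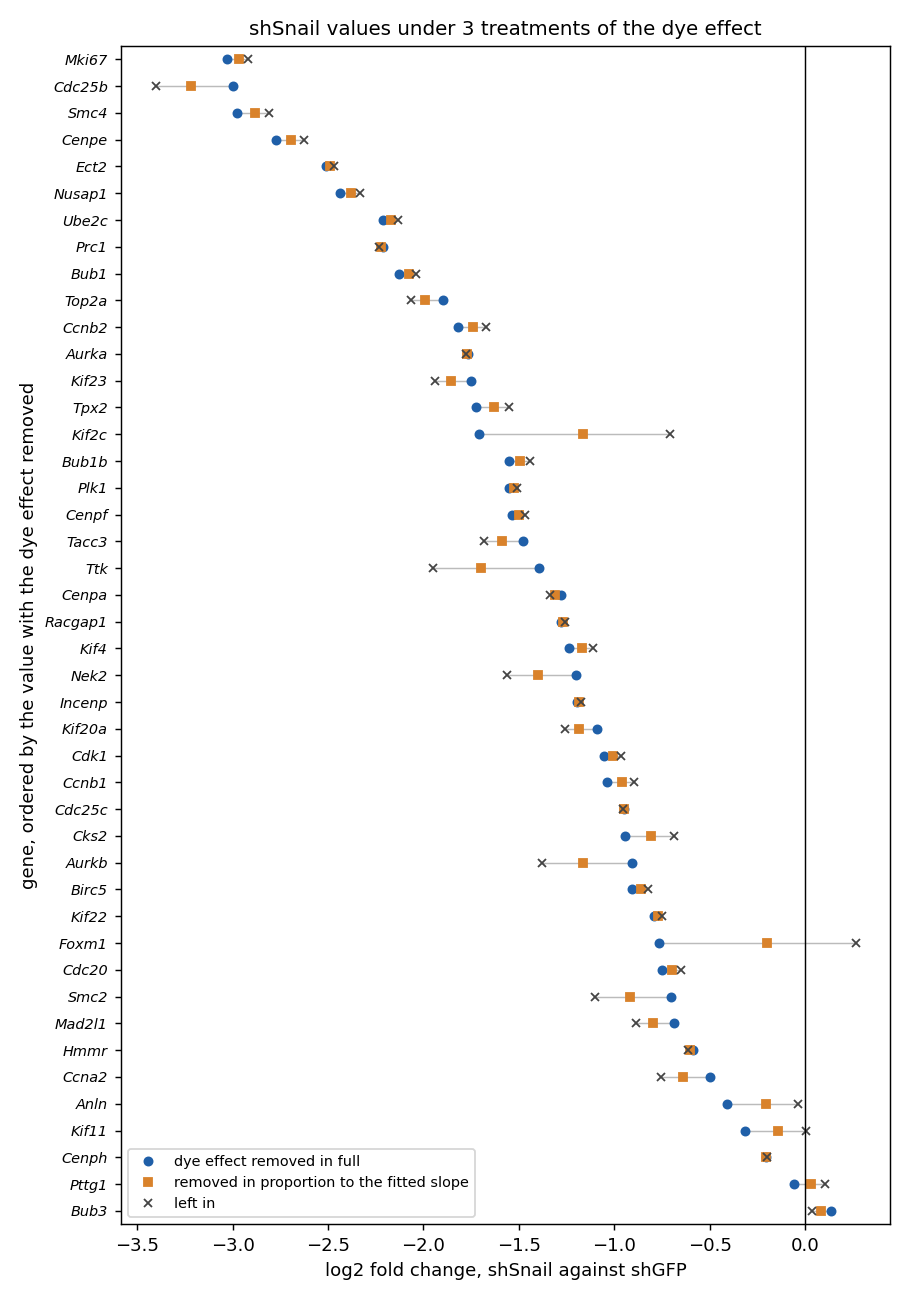
Log2 fold change of each of the 44 genes (rows) in shSnail against shGFP with the dye effect removed in full (circles), removed in proportion to the fitted slope (squares) or left in (crosses), grey lines joining circle and cross. For most genes the 3 marks lie close together; Foxm1 spans -0.76 to 0.26 and Kif2c -1.71 to -0.71.

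The lines were set directly against each other on the 4 arrays with silenced RNA in Cy5. A dye effect cancels there only if it is equal on all 4 arrays. The shSnail ratios had a slope of 0.45 on the dye effect estimated from shLoxl2, so it may cancel only in part. The lines differed at 6 of the 44 genes. In shSnail 5 were lower than in shLoxl2 and 1 was higher, against 8.54% of all probes lower and 4.22% higher, and the median of the 44 was -0.23, against -0.04 over all probes. Cdc25b was 4.53-fold lower in shSnail than in shLoxl2 (log2 -2.18, SE 0.16, limma adjusted p = 0.0116), Mki67 3.54-fold lower (log2 -1.82, SE 0.34, limma adjusted p = 0.0328) and Smc4 2.99-fold lower (log2 -1.58, SE 0.34, limma adjusted p = 0.0436). The dimmer Smc4 probe was at -0.58 and did not pass (limma adjusted p = 0.0654). In a joint fit with scaled removal of the dye effect that probe passed at -0.96 (limma adjusted p = 0.0143). Tpx2 was at -0.91 (SE 0.15, limma adjusted p = 0.0271) and Bub1 at -0.77 (SE 0.16, limma adjusted p = 0.0412). Mad2l1 was the gene higher in shSnail than in shLoxl2, by 0.81 (SE 0.17, limma adjusted p = 0.0417), while being lower than shGFP in both lines. The groups did not overlap on the Cy5 arrays for any of the 6. The genes were called on those same arrays, so this is no further evidence. In the same comparison 5 of the 9 keratinocyte markers (Cdh1, Epcam, Itga6, Krt14 and Sfn) and, of the 8 mesenchymal ones, Fn1 were lower in shSnail than in shLoxl2, and their part in these differences was not tested.

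Without replicate 1 or without replicate 2 of shSnail, 0 genes were lower and 0 higher. Those fits leave 1 shSnail sample, assumed to vary like the shLoxl2 samples, and over all probes they called 47 and 39. The fold changes moved less, with Cdc25b at -2.19 without shSnail replicate 1 and -2.17 without replicate 2, and Mki67 at -1.60 and -2.05. Without shLoxl2 replicate 1, 11 genes were lower, with 4278 calls over all probes. Scan day, slide and the scanner software's extraction protocol differed between the lines throughout, so that for these 6 genes scan day and silenced line cannot be told apart. At an unadjusted p below 0.05, 15 genes were lower in shSnail than in shLoxl2 and 5 were higher, and the share of all probes at this cut was not counted. Among the 38 genes that did not pass, Nusap1 (-0.66, limma adjusted p = 0.0539), Ect2 (-0.77, limma adjusted p = 0.0552) and Prc1 (-0.67, limma adjusted p = 0.0581) lay nearest the threshold.

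**Figure D4:**
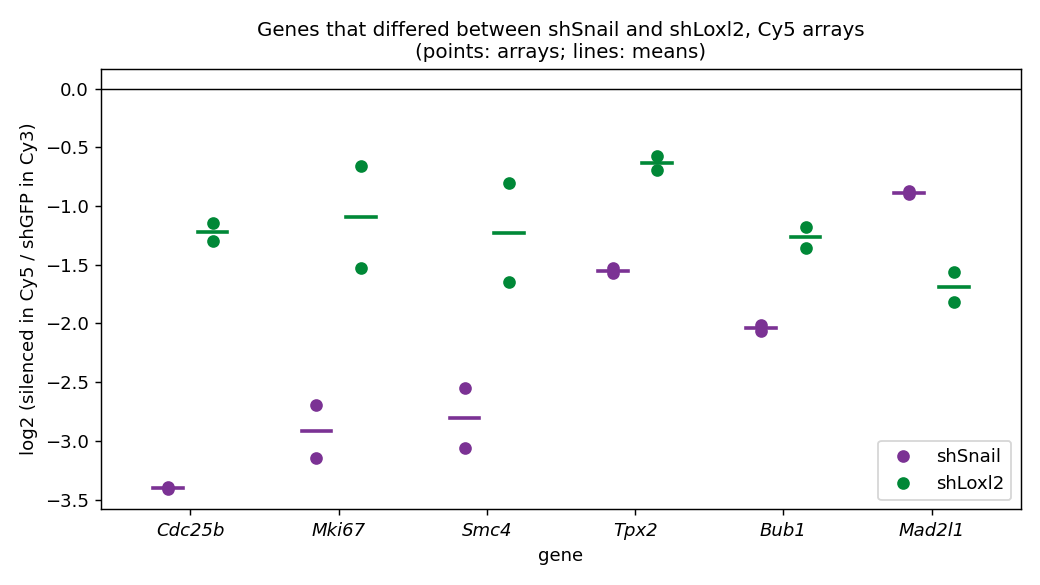
Log2 ratio of silenced RNA in Cy5 over shGFP RNA in Cy3 for the 6 genes that differed between the lines; points are arrays (2 for shSnail at left, 2 for shLoxl2 at right of each gene) and lines are means. The shSnail points lie below the shLoxl2 points for Cdc25b, Mki67, Smc4, Tpx2 and Bub1, and above them for Mad2l1.

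Other genes of cell division, taken from lists that leave out the 45, fell in part, and their counts stand against the shares of all probes given above (5.83% lower and 8.01% higher in shLoxl2, 12.5% and 8.77% in shSnail). Of 25 tested kinetochore and checkpoint genes, 12 were lower and 0 higher in shLoxl2 (median -0.46), and 12 were lower and 1 higher in shSnail (median -0.74). Ndc80, of the complex with which kinetochores grip microtubules, was at -1.25 in shLoxl2 and -1.83 in shSnail. Cenpq, of the constitutive centromere network, had the smallest p of the list in shSnail, at -1.51 in shLoxl2 and -2.36 in shSnail. Zwilch, a checkpoint protein of the RZZ complex, was at -1.96 in shLoxl2 and -1.66 in shSnail. The higher gene in shSnail was Cenpn, a reader of centromeric chromatin, whose shGFP channel was not well above background on either shSnail array, so that no fold is given. Of 17 further passenger, condensin and cohesin genes, 6 were lower in shLoxl2 (median -0.42) and 12 lower and 1 higher in shSnail (median -0.81). Cdca8, the borealin subunit of the passenger complex, was at -1.76 in shLoxl2 and -1.96 in shSnail, and Rad21, the cohesin subunit cut by separase, at -0.86 and -1.59. The condensin subunit Ncapg was at -1.51 in shLoxl2 and -1.17 in shSnail. The higher gene in shSnail was the condensin II subunit Ncaph2, at 0.98 (limma adjusted p = 0.0148).

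Of 24 further motor, centrosome and microtubule genes, 6 were lower and 1 higher in shLoxl2 (median -0.19), and 8 lower and 1 higher in shSnail (median -0.34). The minus-end motor Kifc1 was at -1.15 in shLoxl2 and -1.81 in shSnail, and Plk4, the kinase of centriole duplication, at -1.04 and -1.71. The higher gene in shLoxl2 was Stmn1, a microtubule destabiliser, at 0.72 (limma adjusted p = 0.0131), and it stood at -0.17 in shSnail without passing. With the dye effect left in, 14 were lower and 2 higher in shSnail, against 18.4% of all probes lower and 13% higher. The counts of this list thus leaned on the dye treatment. The motor Kif15 turned with it, at 1.48 with the dye effect removed and -0.81 with it left in. Of 10 cytokinesis genes, 3 were lower in shLoxl2 (median -0.32) and 4 lower and 1 higher in shSnail (median -0.58). With the dye effect left in, 7 were lower and 0 higher in shSnail, against the same 18.4% and 13% of all probes. Chmp4b, an abscission protein, was at -0.60 in shLoxl2 and -1.92 in shSnail. Septin9, which forms filaments at the division site, was at 0.21 in shLoxl2 without passing and at -0.93 in shSnail. The higher gene in shSnail was Iqgap3, for which neither channel was well above background on the shSnail arrays, so that no value is given, and the call was lost with the dye effect left in.

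Of 15 genes of the anaphase-promoting complex and its regulators, 3 were lower and 1 higher in shLoxl2 (median -0.08), against 5.83% of all probes lower and 8.01% higher. In shSnail 3 were lower and 3 higher (median 0.03), against 12.5% of all probes lower and 8.77% higher. The ubiquitin-conjugating enzyme Ube2s was lower in both lines, at -0.76 in shLoxl2 and -1.10 in shSnail, as was the inhibitor Fbxo5, at -0.47 and -1.24. The subunit Cdc16 was lower in shLoxl2 at -0.56 and stood at 0.45 in shSnail (limma adjusted p = 0.0738). The subunit Anapc1 was higher in shLoxl2 at 0.77 and lower in shSnail at -0.53, a call lost with the dye effect left in. The higher genes in shSnail were the subunits Anapc13 at 1.31, Anapc10 at 0.86 and Cdc26. No value is given for Cdc26, whose silenced channel was not well above background on either shSnail array, and its call turned to lower with the dye effect left in. Of 12 other entry kinases, phosphatases and cyclins, 2 were lower in shLoxl2 (median -0.18) and 4 in shSnail (median -0.28). With the dye effect left in, 1 was lower in shSnail, against 18.4% of all probes. Ensa, an inhibitor of the phosphatase PP2A, was lower in both, at -0.92 in shLoxl2 and -0.68 in shSnail, as was Bora, a cofactor of Aurora A, at -0.47 and -0.72. The phosphatase Cdc25a was lower in shSnail at -0.90 and stood at 0.20 in shLoxl2 without passing.

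Of 12 genes for factors that transcribe G2/M genes, 1 was lower in shLoxl2 (median -0.17) and 3 in shSnail (median -0.49), against 5.83% and 12.5% of all probes. The NF-Y subunit Nfyb was lower in both, at -0.49 in shLoxl2 (limma adjusted p = 0.0442) and -0.83 in shSnail (limma adjusted p = 0.01), and E2f8, a repressor of the E2F family, and the MuvB subunit Lin9 were lower in shSnail, at -0.66 and -0.72. Mybl2, which encodes B-Myb, passed in neither line, at -0.29 in shLoxl2 and -0.18 in shSnail. Of 29 DNA replication genes, 6 were lower in shLoxl2 (median 0.04) and 5 lower and 3 higher in shSnail (median -0.07). The initiation factor Mcm10 was lower in both, at -0.86 in shLoxl2 and -1.22 in shSnail. Pola1, the catalytic subunit of DNA polymerase alpha, was lower in shSnail at -1.05 and stood at 0.05 in shLoxl2. The higher genes in shSnail were Gins4, of the replicative helicase, at 0.62, Orc6, of the origin recognition complex, at 0.55, and the clamp loader subunit Rfc4 at 0.52, while Orc6 and Rfc4 were lower in shLoxl2, at -0.74 and -0.55.

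**Figure D5:**
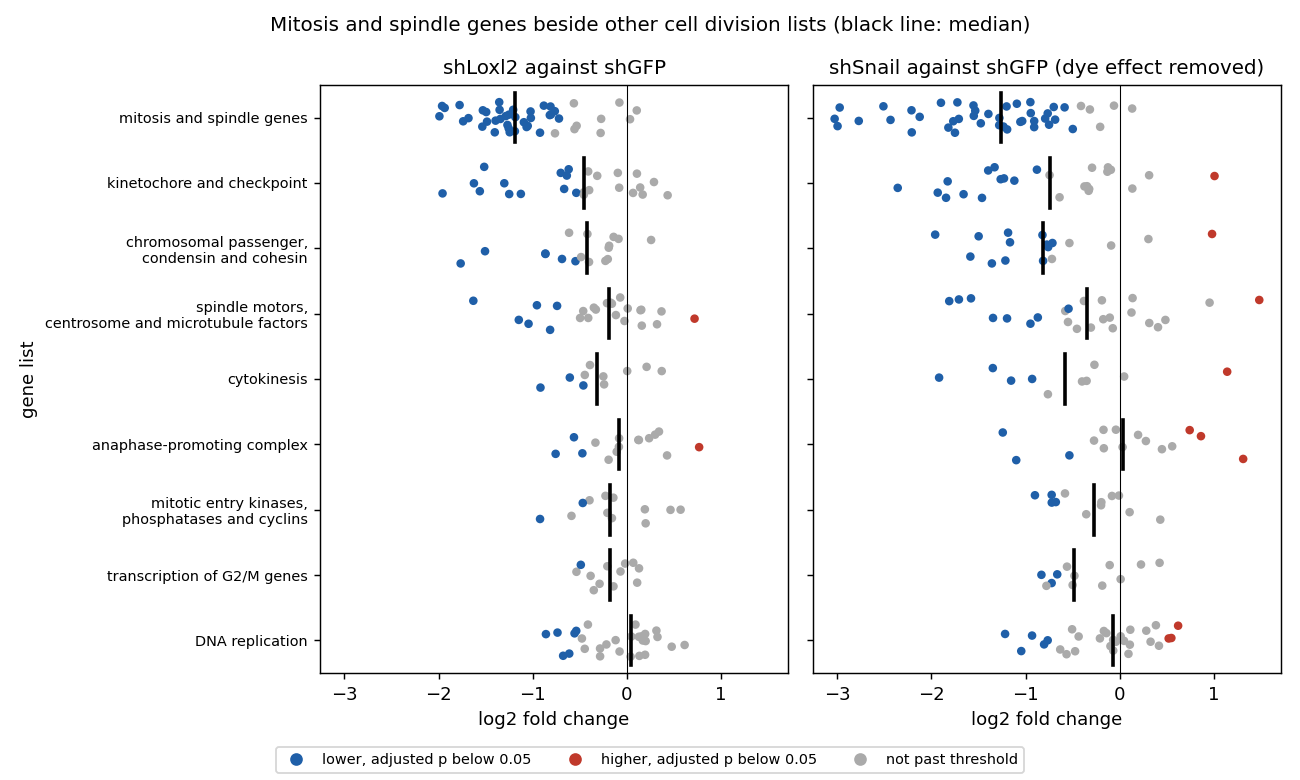
Log2 fold change of each tested gene (points) in the mitosis and spindle set and in 8 other cell division lists (rows), for shLoxl2 against shGFP on the left and shSnail against shGFP with the dye effect removed on the right; vertical position within a row is jittered and black lines are medians. The top row has medians of -1.19 and -1.26, while those of the DNA replication row are 0.04 and -0.07.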

How the data were processed

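RNA of 2 silenced lines was set against shGFP RNA on 6 arrays. The authors deposited the scanner files, with the mean and local background intensity of each spot in both dyes. Per the file headers they come from Agilent Feature Extraction 9.5.1.1, whereas the submitters' processing notes give 6.1.1. The same files hold deposited log10 ratios computed by the scanner software, which served as an alternative. The authors' value table holds log10 ratios; its shSnail replicate 2 column matched the array of replicate 1 at 100% of spots and its own at 9.37% (within 0.006), so it was only checked and not used for tests.

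With limma 3.58.1 in R 4.3.3, and the data.table package (version 1.17.8) for reading, background was removed with normexp (offset 50) and each array was then normalized within itself by loess, with 736 control spots and outlier spots at weight 0. Log2 ratios of the deposited channels were averaged over the spots of a probe. Of 20868 probes, 19718 were tested: well above background in a channel on at least 2 arrays, with a value on all 6. Ratio directions came from the dyes in the labels. The dye-swapped arrays of a shLoxl2 number were averaged, with the sign turned, as 1 sample and fitted with the shSnail samples sharing the spread. For shSnail, each probe's dye effect (the mean shift common to both orientations of shLoxl2) was removed. The dye effect values of the 2 shLoxl2 samples were in the same fit and also shared in the estimate of spread. The lines were compared with each other on the 4 arrays with silenced RNA in Cy5. Moderated tests came from limma's lmFit and eBayes, p-values were adjusted by Benjamini-Hochberg over all tested probes with a threshold of 0.05, and intervals are at 95%. The number of arrays limits the precision. The scripts were tested on simulated data with an equal dye effect on all arrays. That simulation does not cover the slope of 0.45 fitted for shSnail.

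Genes were represented by their brightest tested probe; 4 (Cenpe, Smc2, Smc4 and Anln) had a further tested probe. Probe positions in mm8 were copied from the files. Array ratios are given for the 8 genes of smallest p in each comparison with shGFP and for every gene that passed upward or between the lines; other genes are given by counts, ranges and fitted values, and lists by counts, medians and the 3 genes with the smallest p in either comparison with shGFP. Other genes called higher in a list, and Ube2s, Cdc16 and Mybl2, were named after their values were seen. The genes, lists and this rule were chosen with earlier results of these data known. The labels do not say that replicate numbers pair the samples. Promoter sequences are RefSeq's.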

Additional observations from a re-analysis of the deposited data

Results flagged for a closer look

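The lines differed at 6 genes by the direct test of shSnail against shLoxl2 (limma, 2 Cy5 arrays each), of which 5 of 44 were lower and 1 higher in shSnail, against 8.54% of all probes lower and 4.22% higher, so that neither share of the mitosis genes was far from that of all probes. On the log2 scale, shSnail minus shLoxl2, the values were -2.18 for Cdc25b, -1.82 for Mki67, -1.58 for Smc4, -0.91 for Tpx2, -0.77 for Bub1 and 0.81 for Mad2l1. The dimmer Smc4 probe was at -0.58 and did not pass. In each case the shSnail arrays lay on 1 side of both shLoxl2 arrays, which is no further evidence since the genes were called on those arrays. Scan day moved with the line, and its part in these differences cannot be told apart.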

How the results depend on the processing

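In shLoxl2 against shGFP the number of lower genes ran from 25 with the scanner software's log ratios to 37 with Cy5 arrays alone over 11 alternatives, and the number of higher genes was 0 except with Cy5 arrays alone (2). In shSnail against shGFP it ran from 29 without shSnail replicate 1 to 39 over 12 alternatives, with 0 higher. The scanner software's log ratios moved the median of all probes in shSnail to -0.28 and that of the mitosis genes to -1.78, which remained below it. In shSnail against shLoxl2, lower and higher genes numbered 12 and 1 without background subtraction and 4 and 0 with the scanner software's log ratios. Median centring gave 20 and 0, but it also called 9358 of all probes in either direction. Among the 39 genes above background in both channels on the 4 arrays of that comparison, 11 were lower and 3 higher. A joint fit with scaled removal of the dye effect gave 7 and 2. The share of all probes in each direction was not counted for these settings of shSnail against shLoxl2. Leaving out a replicate gave 0 to 11 lower and 0 to 1 higher genes there. Over all probes, calls in either direction ran from 774 to 7624 in shLoxl2 against shGFP, from 1584 to 8703 in shSnail against shGFP and from 39 to 9358 between the lines. A fit with the replicate number as a block gave 7 lower and 1 higher, and the deviations of same-numbered samples correlated at 0.21 over probes.

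Some genes changed sign. In shLoxl2, Kif11 was at -0.15 with the scanner software's log ratios, -0.055 with median centring and -0.21 with Cy3 arrays alone, and Foxm1 at -0.15 with median centring, -0.11 to 0.18 without a shLoxl2 replicate and -0.99 with Cy3 arrays alone. With Cy5 arrays alone, Kif2c was at 0.079 and Anln at 0.30. In shSnail, Pttg1 was at 0.0034 without background subtraction, -0.24 to 0.12 without a shSnail replicate, 0.095 without shLoxl2 replicate 1, 0.11 with the dye effect left in and 0.031 with its scaled removal. Bub3 was at -0.32 and Kif11 at 0.36 with median centring, Cenph at -0.48 to 0.069 without a shSnail replicate, and, with the dye effect left in, Foxm1 at 0.26 and Kif11 at 0.0046. The cause of these moves was not tested.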
